A study of Macaca mulatta with 12 samples.

Results

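The 7 genes described here encode transcription regulators of mesenchyme: the basic helix-loop-helix factors TWIST1 and TWIST2, the forkhead factor FOXF2, the homeobox factors MSX1 and ZFHX3, the nuclear factor I protein NFIX and the TEAD cofactor VGLL3. They were taken by name, with every probe set that the platform annotation assigns to one of them and to no other gene. That gave 11 of 52766 probe sets, and 7 of the 12993 genes that could be followed by name. ZFHX3 had 4 probe sets, VGLL3 had 2 and each other gene had 1. The list does not state which values led to the choice, and the 7 genes are treated as chosen by their levels in fibroblasts and embryonic stem (ES) cells. These levels, and the already known differences of TWIST1 between ES lines, are therefore given as a description with no test. The other 6 genes are tested between ES lines, although other results of those comparisons were known as well, so that these tests may not be free of selection.

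The measurements came from 12 one-colour Affymetrix rhesus arrays, 3 (replicates A, B and C) for each of 4 groups of Macaca mulatta cells. Fibroblasts were adult skin cells of a 9-year-old male, for which the labels name no feeder cells. ORMES-9 is described as a homozygous parthenogenetic ES line, although its source label names an IVF blastocyst. rPESC-2 is a heterozygous parthenogenetic ES line, so that both of its genome copies are maternal, and ORMES-22 is a biparental ES line from an IVF blastocyst. All 3 ES lines were female, grew on mitotically inactivated mouse embryonic fibroblasts in medium with 15% fetal bovine serum, and gave RNA from colonies judged undifferentiated. The fibroblast medium held 10% serum. The ES arrays came from passages 13, 14 and 16 of ORMES-9, passages 16, 10 and 16 of rPESC-2 and passages 18, 21 and 19 of ORMES-22, in the order A, B, C. Each kind of origin was represented by 1 line, so that line and origin cannot be told apart. A p-value here rests on the spread between cultures within a group, pooled over all 4 groups with fibroblasts included. It does not measure the spread between lines of a kind.

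TWIST1 and TWIST2 pair with E proteins to bind DNA in mesenchyme, and TWIST1 is known for driving epithelial-mesenchymal transition, in which epithelial cells lose their junctions. MSX1 acts in the mesenchyme of limb, tooth and face, and FOXF2 in the mesenchyme of palate and gut. VGLL3 binds TEAD factors, as the Hippo pathway effectors YAP1 and WWTR1 do. NFIX is one of the nuclear factor I proteins, which are active in muscle and brain development, and ZFHX3 is a very large protein with several homeodomains and zinc fingers. ES cells form epithelial colonies, whereas skin fibroblasts are mesenchymal.

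Values are log2 expression after RMA normalisation, a level of 1 more being a doubling of signal. The background level was set at 4.26, below which 90% of the readings of 42 probe sets for bacterial controls lay. A difference from a level below it is as measured and can be too small, and a fold given as "at least" has values below it raised to it, with the p of the fit to the values as measured. Array correlations within a group were 0.9957 to 0.9968 for fibroblasts, 0.9948 to 0.9956 for ORMES-9, 0.9937 to 0.995 for rPESC-2 and 0.9844 to 0.9928 for ORMES-22. ORMES-22 replicate A stood apart: set against the mean of its replicates B and C, 303 genes were up 2-fold or more in it and 172 were down. No other array differed so in more than 103 genes in either direction. Over 11 fibroblast markers, the mean level was 11.71 to 11.74 in fibroblasts, 7.97 to 8.25 in ORMES-9, 7.71 to 8.34 in rPESC-2 and 8.49 to 8.82 in ORMES-22. Of these markers, 9 passed the test as higher in fibroblasts, among them LUM, the proteoglycan lumican, at 11.49 against means of 3.59 to 3.91 in the ES lines, which are below background. THY1 was not higher (−0.31), nor was the brightest probe set of DCN (−0.43), although 4 other DCN probe sets were 7.91 to 8.55 higher. Over 9 ES cell markers the mean was 5.07 to 5.17 in fibroblasts, against 9.44 to 9.66 in ORMES-9, 9.28 to 9.40 in rPESC-2 and 9.01 to 9.38 in ORMES-22. The brightest probe set of the pluripotency factor gene NANOG went the other way, 1.32 higher in fibroblasts, and whether it reads NANOG itself or a related copy was not tested.

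TWIST1 read 9.46, 9.63 and 9.37 in fibroblasts, 5.58, 5.52 and 6.29 in ORMES-9, 7.03, 6.89 and 6.10 in rPESC-2, and 8.28, 8.49 and 8.64 in ORMES-22 (replicates A, B, C). The fibroblast and ORMES-22 arrays each formed a tight group of their own, and the lower levels of both parthenogenetic lines overlapped each other. Group means were 9.49 ± 0.13 in fibroblasts, 5.80 ± 0.43 in ORMES-9, 6.67 ± 0.50 in rPESC-2 and 8.47 ± 0.18 in ORMES-22 (SD, n = 3 each). On the log2 scale TWIST1 differed from its ORMES-22 level by −2.67 in ORMES-9 and −1.80 in rPESC-2, and the difference of ORMES-9 from rPESC-2 was −0.87. Leaving out any single array kept these differences at −2.92 to −2.53, −1.98 to −1.51 and −1.16 to −0.69. The step between fibroblasts and ORMES-22, 1.02, was smaller than the step between rPESC-2 and ORMES-22. In such bulk samples, fewer cells that express a gene and less RNA per cell cannot be told apart.

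TWIST2, the close relative of TWIST1, read 4.99, 4.72 and 4.89 in fibroblasts, 4.11, 4.01 and 4.09 in ORMES-9, 4.13, 4.05 and 4.14 in rPESC-2, and 4.27, 4.31 and 4.04 in ORMES-22. Only the fibroblast arrays and 2 ORMES-22 arrays lay above the background level, all within 1 log2 unit of it. The ES lines overlapped one another, and the 95% intervals of their differences reached from −0.33 to 0.07 for ORMES-9 against ORMES-22 and from −0.30 to 0.10 for rPESC-2 against ORMES-22 (limma adjusted p = 0.50 and 0.59). No difference of the size seen in TWIST1 was found in TWIST2, whose probe set was close to the background in all ES arrays.

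**Figure D1:**
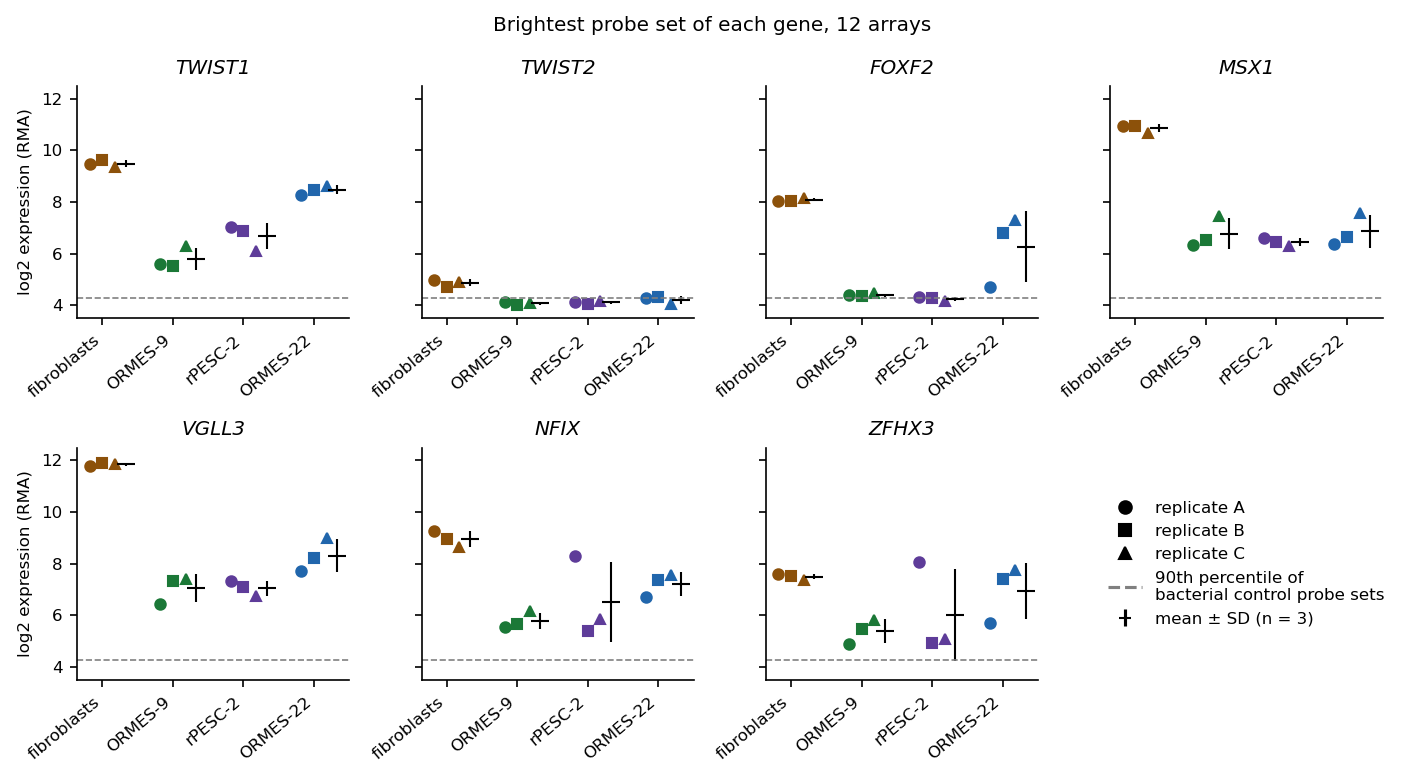
Log2 expression (y axis) of the brightest probe set of each of the 7 genes in fibroblasts, ORMES-9, rPESC-2 and ORMES-22 (x axis). Symbols are single arrays by replicate letter, black bars are mean ± SD (n = 3), and the dashed line is the background level of 4.26. TWIST1 was 8.28 or more in all ORMES-22 arrays and at most 7.03 in both other ES lines, FOXF2 spread from 4.69 to 7.29 in ORMES-22, and NFIX and ZFHX3 stood at 8.29 and 8.05 in rPESC-2 replicate A.

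FOXF2 read 8.05, 8.05 and 8.15 in fibroblasts, 4.38, 4.34 and 4.46 in ORMES-9, 4.31, 4.29 and 4.17 in rPESC-2, and 4.69, 6.80 and 7.29 in ORMES-22. Both parthenogenetic lines sat close to the background level, at 4.17 to 4.46. Within ORMES-22 the level was high in replicates B and C and only slightly above background in replicate A. FOXF2 fell in both lines against ORMES-22, with a difference of −1.87 in ORMES-9 (SE 0.47, 95% interval −2.90 to −0.84, limma adjusted p = 0.038) and −2.01 in rPESC-2 (SE 0.47, −3.03 to −0.98, adjusted p = 0.033), and the arrays of the lines compared did not overlap. Without ORMES-22 replicate A the differences were −2.65 and −2.79 (limma adjusted p = 1.1e-07 and 9.9e-08). That array held the low FOXF2 value of its line, so that its omission enlarges the difference and shrinks the spread. These p-values are thus a selected result. ORMES-9 and rPESC-2 differed by 0.14 (−0.89 to 1.17, limma adjusted p = 0.95). The direction was kept in every omission of 1 array, but the call was not: it was lost in 11 of 12 omissions for ORMES-9, that of ORMES-22 replicate A excepted, and in 9 of 12 for rPESC-2, with limma adjusted p up to 0.13 in both.

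MSX1 read 10.96, 10.94 and 10.69 in fibroblasts, 6.34, 6.53 and 7.46 in ORMES-9, 6.61, 6.44 and 6.30 in rPESC-2, and 6.36, 6.64 and 7.59 in ORMES-22. The fibroblast level stood alone, and the ES lines overlapped. In the ES lines MSX1 was highest in replicate C of ORMES-9 and replicate C of ORMES-22, whereas rPESC-2 had no such array. The difference was −0.09 for ORMES-9 (−0.77 to 0.59, limma adjusted p = 0.92) and −0.41 for rPESC-2 (−1.09 to 0.27, adjusted p = 0.49) against ORMES-22. Of 8 trophoblast markers, a list added after the data were seen, 6 were highest in replicate C of ORMES-9 among its arrays. In replicate C of ORMES-22 4 were highest, and 1 and 2 were lowest in these arrays. Of all genes, 31.9% and 26.7% were highest in them. Other lineage lists were also added later. In ORMES-9 replicate C, 6 of 10 mesoderm, 4 of 7 endoderm and 4 of 8 neural genes were highest. In ORMES-22 replicate C these counts were 2, 3 and 2. By 2-fold or more, 1 endoderm gene was higher in the first array, and 2 endoderm genes and 1 neural gene in the second. The trophoblast mean was 6.52 and 6.61 in these arrays and 5.70 to 6.16 in the other ES arrays. GATA3 was 2-fold or more above the other replicates in both, and TFAP2C in ORMES-22 replicate C. GATA3, singled out for its size, read 7.94 and 8.02 in these arrays and 5.52 to 6.19 in the other ES arrays, whereas CDX2 read 5.09 and 5.04. The related homeobox gene MSX2 read 7.61, 7.53 and 9.0 in ORMES-9, 7.55, 7.39 and 7.51 in rPESC-2, and 8.05, 8.89 and 10.15 in ORMES-22. Replicates A and B of ORMES-22 thus also lay above the ORMES-9 replicates A and B and all rPESC-2 arrays. Whether cells leaving the undifferentiated state had a part in these levels was not tested.

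VGLL3 was read by a bright and a dim probe set. The bright one gave 11.79, 11.88 and 11.87 in fibroblasts, 6.43, 7.31 and 7.39 in ORMES-9, 7.31, 7.07 and 6.72 in rPESC-2, and 7.70, 8.23 and 8.97 in ORMES-22. Each ORMES-22 array was above every array of both parthenogenetic lines. The difference from ORMES-22 was −1.26 in ORMES-9 (SE 0.30, −1.92 to −0.59, limma adjusted p = 0.031) and −1.26 in rPESC-2 (SE 0.30, −1.93 to −0.60, adjusted p = 0.037), and 0.01 between ORMES-9 and rPESC-2 (−0.66 to 0.67). The dim probe set read 9.07, 9.15 and 9.18 in fibroblasts, 3.93, 4.53 and 4.66 in ORMES-9, 4.82, 4.65 and 4.66 in rPESC-2, and 4.52, 4.62 and 5.43 in ORMES-22. It was between 3.93 and 4.82 in all ES arrays except ORMES-22 replicate C and did not pass the test, at −0.48 for ORMES-9 (limma adjusted p = 0.28) and −0.15 for rPESC-2 (adjusted p = 0.76). The calls of the bright probe set were lost in 7 of 12 omissions of 1 array for ORMES-9 and 8 of 12 for rPESC-2, with differences of −1.56 to −0.92 and −1.57 to −0.93.

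NFIX read 9.25, 8.94 and 8.65 in fibroblasts, 5.54, 5.67 and 6.14 in ORMES-9, 8.29, 5.40 and 5.85 in rPESC-2, and 6.69, 7.37 and 7.57 in ORMES-22. ORMES-9 lay wholly below ORMES-22, while rPESC-2 was split, with replicate A above every ORMES-22 array and replicates B and C below. Replicates A and C of rPESC-2 came from the same passage number. The difference was −1.43 for ORMES-9 (SE 0.57, −2.67 to −0.18, limma adjusted p = 0.20) and −0.70 for rPESC-2 (SE 0.57, −1.94 to 0.55, adjusted p = 0.53) against ORMES-22. Without rPESC-2 replicate A they were −1.43 and −1.58 and passed the test (limma adjusted p = 0.0064 and 0.012). The first of these 2 differences did not itself change, and only the spread pooled over the groups did. In the other 11 omissions of 1 array NFIX was not called in either comparison. The limma adjusted p then reached up to 0.43 for ORMES-9 and 0.95 for rPESC-2. Replicate A of rPESC-2 was singled out for its high value, so that the calls without it are a selected result.

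ZFHX3 had the same split. Its brightest probe set read 7.57, 7.51 and 7.37 in fibroblasts, 4.87, 5.45 and 5.82 in ORMES-9, 8.05, 4.91 and 5.06 in rPESC-2, and 5.69, 7.39 and 7.73 in ORMES-22. The next brightest read 6.95, 6.62 and 6.89 in fibroblasts, 5.36, 5.74 and 5.80 in ORMES-9, 6.63, 5.12 and 5.29 in rPESC-2, and 5.60, 7.03 and 7.02 in ORMES-22. In both probe sets rPESC-2 replicate A reached the range of ORMES-22 replicates B and C or came close to it, and ORMES-22 replicate A fell to the level of the low ES arrays. The brightest probe set differed from ORMES-22 by −1.56 in ORMES-9 (SE 0.72, −3.14 to 0.02, limma adjusted p = 0.28) and by −0.94 in rPESC-2 (SE 0.72, −2.52 to 0.65, adjusted p = 0.50). The other 2 probe sets read at most 5.32 in any of the 12 arrays. Across the 12 arrays they followed the brightest with Pearson r of 0.835 and 0.692, and the next brightest did so with 0.96, as a description of arrays that fall in 4 groups.

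Compared with the mean of the 3 ES lines, all 11 probe sets were higher in fibroblasts, 7 by at least 2-fold and 7 with no array overlapping. The median difference was 2.44, against −0.11 over all probe sets. For reference, 10.5% of all probe sets passed the test as higher in fibroblasts, which is a different measure from these counts. The shares of all probe sets that were higher, 2-fold higher or free of overlap were not counted. This contrast is taken to have chosen the genes, so nothing is read from these counts. By the brightest probe set, VGLL3 was 20.9-fold, MSX1 18.0-fold, FOXF2 8.66-fold, TWIST1 5.68-fold and NFIX 5.44-fold higher. ZFHX3 was 2.60-fold higher with overlap, since rPESC-2 replicate A and ORMES-22 replicate C exceeded the fibroblast arrays. TWIST2 was 1.66-fold higher, or at least 1.51-fold with values below background raised to it. In the order of levels, fibroblasts were first for each gene and ORMES-22 second. The step from fibroblasts to ORMES-22 was free of overlap for all genes except ZFHX3, and the step between the parthenogenetic lines was free of overlap only for FOXF2, where it was 0.14.

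Between ES lines, 2 of the 10 probe sets other than TWIST1 passed the test as lower in ORMES-9 than in ORMES-22, those of FOXF2 and the brighter one of VGLL3, against 0.629% of all probe sets. The same probe sets passed as lower in rPESC-2 than in ORMES-22, against 0.474% of all probe sets. No probe set passed as higher in either comparison, and all 10 differences were negative in both. The 10 probe sets read only 6 genes, with 4 for ZFHX3 and 2 for VGLL3, so that they are not 10 separate results. The share of all probe sets with a negative difference was not counted. The median of the 10 differences was −0.71 in ORMES-9 and −0.55 in rPESC-2, against −0.01 and −0.02 over all probe sets. The 11 fibroblast markers, by their brightest probe sets, had medians of −0.54 and −0.62, against −0.01 and −0.03 over all genes. A shift of this size was thus not particular to the genes described here. At an unadjusted limma p under 0.05, 5 of the 10 probe sets passed for ORMES-9 and 2 for rPESC-2, all as lower. Of all probe sets, 18.5% and 20.9% passed in either direction, and 7.68% and 10.1% as lower. The count for rPESC-2 was near the share in either direction. Whether it exceeded the share passing as lower was not tested. Both comparisons share the ORMES-22 arrays. Of ORMES-9 against rPESC-2, limma called 0 of the 10, against 1.23% of all probe sets called in either direction, and 0 passed an unadjusted p under 0.05, against 15.9%. There 6 differences were negative and 4 positive, with a median of −0.04 against 0.01 over all probe sets.

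These calls depended on which arrays entered the fit. With only the 9 ES arrays, no probe set was called in either comparison with ORMES-22, and with only the 6 arrays compared both lost their calls in both comparisons. For ORMES-9 the FOXF2 and VGLL3 probe sets then had limma adjusted p of 0.24 and 0.19, and the 1 probe set called was that of NFIX (−1.43, adjusted p = 0.049). Without ORMES-22 replicate A, 3 were called in each comparison, the third being the next brightest ZFHX3 probe set (−1.39 in ORMES-9 and −1.35 in rPESC-2, limma adjusted p = 0.021 in both). FOXF2, VGLL3 and ZFHX3 were lowest in that array within ORMES-22, so that the calls without it are a selected result. The fibroblast marker mean of every ORMES-22 array, 8.49 to 8.82, lay above that of every ORMES-9 and rPESC-2 array, at most 8.34, and 10 of the 11 markers were above background in each ES line. One marker, the collagen gene COL6A3, passed as lower in rPESC-2 than in ORMES-22 (−1.84, SE 0.31, limma adjusted p = 0.0061), and none passed for ORMES-9. Some had a limma adjusted p under 0.05 but fell short of 2-fold. These were COL1A1, FBN1 and VIM in ORMES-9 (−0.90, −0.86 and −0.96), and COL1A1 and THY1 in rPESC-2 (−0.82 and −0.93). No marker passed as higher in either line. Markers of endoderm, a list added after the data were seen and not tested, lay the other way. Over 7 genes their mean level was 7.15 to 7.61 in ORMES-9 and 7.50 to 7.80 in rPESC-2, against 6.02 to 6.55 in ORMES-22, and the median difference from ORMES-22 was 1.01 in ORMES-9 and 1.89 in rPESC-2. The early endoderm genes SOX17, GATA6, FOXA2 and CER1 were 1.01 to 2.92 above ORMES-22, while AFP, APOA1 and APOB lay between −0.21 and 0.39. Neither the part of these marker levels nor that of RNA from the mouse feeder cells in the results was tested.

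**Figure D2:**
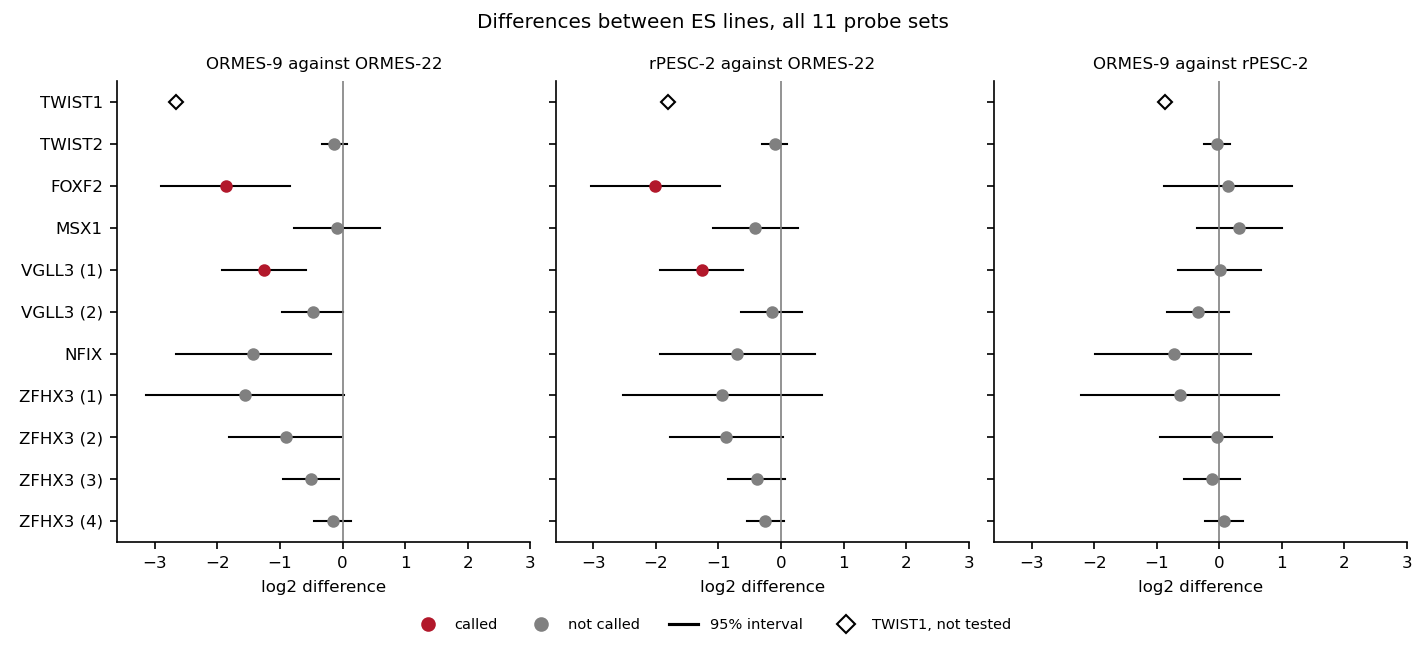
Log2 differences (x axis) of all 11 probe sets (y axis, with probe sets of a gene numbered from the brightest) for ORMES-9 against ORMES-22, rPESC-2 against ORMES-22 and ORMES-9 against rPESC-2. Points are limma estimates with 95% intervals, red where called, and open diamonds are TWIST1 with no test. In both comparisons with ORMES-22 all points lie left of 0 and those of FOXF2 and the brighter VGLL3 probe set are called; none is called between ORMES-9 and rPESC-2.

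Within each ES line, 6 of the 7 genes, all except TWIST2, were highest in the same array: replicate C of ORMES-9, replicate A of rPESC-2 and replicate C of ORMES-22, where 31.9%, 26.3% and 26.7% of all genes were highest. The same 6 genes were all lowest in ORMES-22 replicate A, where 40% of all genes were lowest. In ORMES-9 and rPESC-2 the lowest values were divided between 2 arrays. The genes differed in the size of these shifts. FOXF2 and ZFHX3 were lower by 2-fold or more in ORMES-22 replicate A, set against the mean of its other replicates. By the same measure FOXF2, MSX1, VGLL3 and ZFHX3 were higher in ORMES-22 replicate C, and MSX1 alone was higher in ORMES-9 replicate C. In rPESC-2 replicate A, 30 of 12993 genes were higher by this measure, NFIX and ZFHX3 among them, and ZFHX3 was lower in B and in C and NFIX in B. TWIST1 and TWIST2 did not differ so in any array.

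The genes whose levels followed each of the 7 most closely over the 12 arrays are named by Pearson r among 11781 genes, as a description, since fibroblasts stand apart from ES cells for most of them. TWIST1 was followed by the small GTPase gene RAB4A (r = 0.9783), the mesenchymal cadherin gene CDH11 (0.969) and the vimentin gene VIM (0.9558). CDH11 read 11.24, 11.51 and 11.56 in fibroblasts, 7.42, 7.79 and 8.14 in ORMES-9, 9.90, 8.39 and 8.34 in rPESC-2, and 9.73, 10.47 and 10.52 in ORMES-22. It thus gave the same order of groups as TWIST1, but with rPESC-2 replicate A well above B and C. Over the 9 ES arrays alone TWIST1 was followed by the cell cycle factor gene E2F5 (0.9826), RAB4A (0.972) and the smooth muscle myosin gene MYH11 (0.9602). E2F5 was low in fibroblasts (6.72 to 6.91) and changed little among the ES arrays (9.90 to 10.53), so that likeness in order does not mean likeness in size. MYH11 read 6.61, 6.83 and 7.05 in ORMES-9, 7.66, 7.65 and 7.59 in rPESC-2 and 8.34, 8.38 and 8.68 in ORMES-22, and 5.65 to 5.82 in fibroblasts.

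NFIX was followed by the metalloproteinase inhibitor gene TIMP2 (0.9816), the calcium-binding protein gene S100A6 (0.9778) and the Krüppel-like factor gene KLF4 (0.9571). All 3 shared the high value in rPESC-2 replicate A. S100A6 read 11.78 there against 8.04 and 8.38 in replicates B and C, TIMP2 9.53 against 7.61 and 7.59, and KLF4 7.96 against 6.02 and 6.30. ZFHX3 was followed by IER5L (0.9672), the translation factor gene EIF5A (0.9655) and TIMP3 (0.9427), another metalloproteinase inhibitor. EIF5A read 8.97 in rPESC-2 replicate A against 6.30 and 6.17 in B and C, and 7.16 in ORMES-22 replicate A against 8.86 and 9.33 in B and C. These genes were picked for following NFIX or ZFHX3 over the same arrays, so that a shared array pattern was set by the choice.

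VGLL3 was followed by the fibril-associated collagen gene COL12A1 (0.9947), EMP3 (0.9943) and RAB27A (0.9939). COL12A1 read 11.66 to 11.74 in fibroblasts, 6.11, 7.06 and 7.36 in ORMES-9, 7.49, 7.19 and 7.02 in rPESC-2 and 7.50, 7.86 and 8.61 in ORMES-22, close to VGLL3 in its order within each line. MSX1 was followed by MYH2 (0.9969), MAFF (0.9951) and IL1RL1 (0.994). MYH2, a muscle myosin gene, was 5.10 in ORMES-9 replicate C and 5.45 in ORMES-22 replicate C, above the 4.20 to 4.48 of the other ES arrays, as MSX1 was. FOXF2 was followed by C12H2orf76 (0.9794), STX12 (0.9778) and GLIS3 (0.9762). GLIS3, a zinc finger factor gene, read 6.07 in ORMES-22 replicate A and 6.93 and 7.43 in B and C, the same split as FOXF2. TWIST2 was followed by TAPBPL (0.986), FXYD1 (0.983) and EMILIN1 (0.9827).

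**Figure D3:**
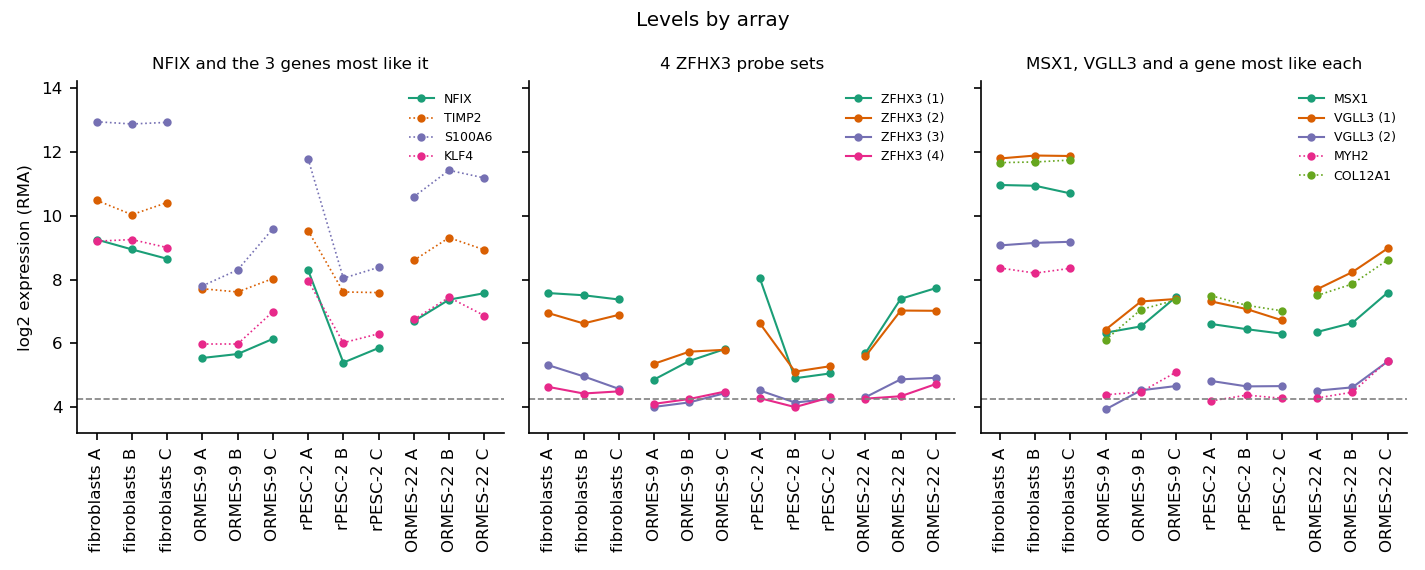
Log2 expression (y axis) in each of the 12 arrays (x axis), with the background level of 4.26 dashed. Solid lines are probe sets of the 7 genes (numbered from the brightest), dotted lines are genes most like them, and lines only join the arrays of a group, which have no order. NFIX, S100A6, TIMP2, KLF4 and the 2 brighter ZFHX3 probe sets are high in rPESC-2 replicate A, and MSX1 and MYH2 are high in replicate C of ORMES-9 and of ORMES-22.

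Other transcription regulators that work with or beside the 7 genes were taken from lists chosen by function. Of 13 measured TWIST partners, TWIST inhibitors and other transition factors (of 15 listed), 2 rose and 2 fell in fibroblasts against the ES lines, where 13.2% of all genes rose and 15% fell. The list median was −0.13, against −0.15 over all genes. The transition factor genes ZEB2 (4.19, SE 0.49) and ZEB1 (3.18, SE 0.15) rose, with limma adjusted p of 1.2e-05 and 1.9e-09. The E protein gene TCF3 (−2.44, SE 0.15) and TCF15 (−1.27, SE 0.12) fell, with adjusted p of 3.6e-08 and 1.7e-06. The other E protein genes, TCF12 and TCF4, went the other way. They were 0.99 and 0.94 higher in fibroblasts, just short of 2-fold (limma adjusted p = 6.2e-05 and 0.00042). In ORMES-9 against ORMES-22, ZEB1 (−1.09, SE 0.18, limma adjusted p = 0.0032) and ID4 (−1.02, SE 0.26, adjusted p = 0.043) fell, against 2.29% of all genes called. ZEB1 read 5.14, 4.70 and 5.34 in ORMES-9 and 6.05, 5.96 and 6.45 in ORMES-22, without overlap. Omitting ORMES-22 replicate C or ORMES-9 replicate B ended its call, as 10 of 12 omissions did for ID4, a helix-loop-helix inhibitor.

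In rPESC-2 against ORMES-22, ID4 was the 1 gene of this list called (−1.19, SE 0.26, limma adjusted p = 0.025), against 1.7% of all genes. It read 7.86, 7.64 and 8.05 in rPESC-2 and 8.43, 9.25 and 9.43 in ORMES-22, and omitting replicate B or C of ORMES-22, or A or B of rPESC-2, ended its call. None of the list was called between ORMES-9 and rPESC-2, against 1.65% of all genes, and the largest difference there was that of ID3 (1.02, limma adjusted p = 0.20). ZEB2 followed NFIX and ZFHX3 in part, with 6.34 in rPESC-2 replicate A against 4.3 and 4.01 in B and C, and 4.37, 5.53 and 6.77 in ORMES-22.

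Of 24 measured homeobox, forkhead, T-box and related mesenchymal factors (of 29), 8 rose and none fell in fibroblasts, with a list median of 0.01. Among them were RUNX1 (4.68, SE 0.23) and TBX3 (2.83, SE 0.15), with limma adjusted p of 3.1e-09 and 5e-09. The limb and skin mesenchyme factor PRRX1 and FOXF1, the close relative of FOXF2, rose by at least 87.0-fold and 6.37-fold with ES values below background raised to it (limma adjusted p = 4.6e-15 and 3.8e-13). The others were PRRX2, SHOX2, TBX15 and OSR2. RUNX2 was not among them by its brightest probe set, but a dimmer one was 4.33 higher and called. No gene of this list was called between ES lines. PRRX1 and FOXF1 had mean ES levels of 3.99 to 4.23, below background in all 3 lines, so that FOXF1 had no ORMES-22 signal like that of FOXF2. MSX2 was −1.55 in rPESC-2 (SE 0.46, limma adjusted p = 0.08) and −0.99 in ORMES-9 (adjusted p = 0.28) against ORMES-22 and did not pass the test.

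Of 11 measured genes for nuclear factor I and ZFHX relatives, VGLL relatives, TEAD factors, YAP1 and WWTR1 (of 14), 5 rose and 1 fell in fibroblasts, with a list median of 0.65. NFIC (2.96, SE 0.08), ZFHX4 (2.54, SE 0.16) and NFIB (2.41, SE 0.20) rose and TEAD2 (−2.76, SE 0.08) fell, with limma adjusted p of 7.6e-12, 2.6e-08, 5.6e-07 and 2.3e-11. The other 2 that rose were YAP1 and WWTR1. Of 10 known TEAD target genes (of 11), the receptor kinase gene AXL (2.97, SE 0.19, limma adjusted p = 4e-08) and the tissue factor gene F3 (2.32, SE 0.34, adjusted p = 7.5e-05) rose and none fell, with a list median of 0.60. A count of 2 of 10 is not far from the 13.2% of all genes that rose. Probe sets disagreed for NT5E and CCN2, whose brightest were not called while dimmer ones were 2.16 and 7.11 higher for NT5E and 1.71 and 1.81 higher for CCN2. The brightest CCN2 probe set was lower in fibroblasts, short of 2-fold (−0.83, limma adjusted p = 0.00046). Neither list held a call between ES lines. Among the largest differences there were TEAD4 (−0.72 in ORMES-9 and −0.68 in rPESC-2 against ORMES-22, limma adjusted p = 0.099 and 0.12) and WWTR1 (−0.61 in rPESC-2, adjusted p = 0.18).

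Of 12 measured epithelial genes known to be repressed by transition factors (of 14), 8 fell and none rose in fibroblasts, with a list median of −1.45. The adhesion gene EPCAM and the desmosome gene DSP, below background in all fibroblast arrays, were at least 69.0-fold and 63.0-fold lower, and the keratin gene KRT8 fell by 5.07 (SE 0.14), with limma adjusted p from 7.1e-15 to 2.1e-10. For CDS1 the brightest probe set was not called and 2 dimmer ones were 1.07 and 1.15 higher. The tight junction gene CLDN7 was higher in rPESC-2 than in ORMES-22 (1.67, SE 0.13, limma adjusted p = 1.7e-05), at 8.24, 8.32 and 8.57 against 6.92, 6.52 and 6.66. The cell polarity gene CRB3 was higher in ORMES-9 than in ORMES-22 (1.23, SE 0.12, limma adjusted p = 6e-05), at 8.89, 9.06 and 8.74 against 7.82, 7.55 and 7.65. Both calls held in all 12 omissions of 1 array. The list mean per array was 8.16 to 8.28 in ORMES-9, 8.11 to 8.14 in rPESC-2 and 7.59 to 7.76 in ORMES-22, without overlap between ORMES-22 and the other lines, and its median difference from ORMES-22 was 0.56 in ORMES-9 and 0.40 in rPESC-2 against −0.01 and −0.03 over all genes.

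**Figure D4:**
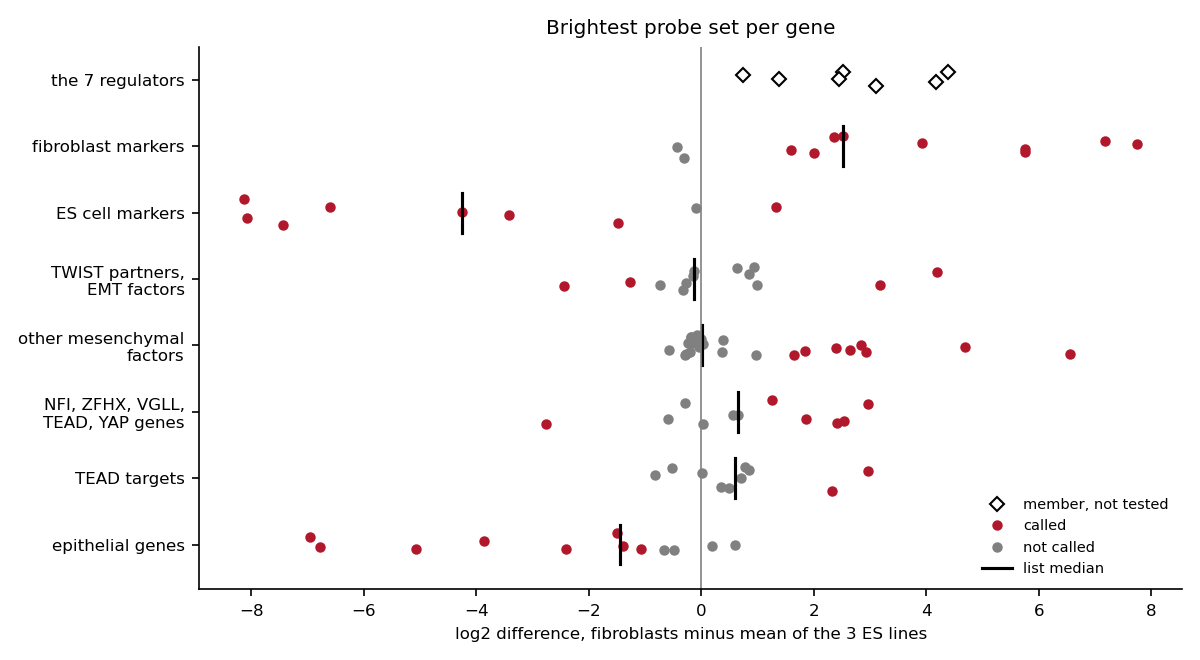
Log2 difference of fibroblasts minus the mean of the 3 ES lines (x axis) for the brightest probe set of each gene, by list (y axis). Open diamonds are the 7 genes described here, with no test; red points are called, grey points are not, and black bars are list medians. The diamonds lie between 0.74 and 4.39, 8 of 24 other mesenchymal factors are called to the right of 0, and 8 of 12 epithelial genes to the left.

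The 7 genes lie on 7 different chromosomes of the assembly T2T-MMU8v2.0, so that none of them neighbours another. The nearest measured gene on each side was read for each. HDAC9, next to TWIST1 and known in mouse to hold enhancers of Twist1, rose in fibroblasts (at least 7.43-fold, limma adjusted p = 1.1e-11), with means of 7.19 in fibroblasts, 3.97 in ORMES-9, 4.36 in rPESC-2 and 3.78 in ORMES-22. It was below background in 6 of the 9 ES arrays, so that whether it followed TWIST1 among the ES lines cannot be told. LYL1, next to NFIX, rose in fibroblasts (1.72, limma adjusted p = 2.3e-09), and beside MSX1 STX18 rose (1.19, adjusted p = 6.6e-06) and CYTL1 fell (−1.80, adjusted p = 0.00012). FOXC1 and FOXQ1, the forkhead genes on either side of FOXF2, were not called in any comparison. In fibroblasts FOXC1 was 0.98 higher, just short of 2-fold, and FOXQ1 0.67 higher (limma adjusted p = 2.7e-06 and 0.057). FOXC1 was −0.45 in ORMES-9 and −0.41 in rPESC-2 against ORMES-22 (limma adjusted p = 0.048 and 0.078), and FOXQ1 was 0.25 and −0.81 (adjusted p = 0.78 and 0.21). None of the 14 neighbours was called between ES lines.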

How the data were processed

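RNA of 12 cultures was measured on one-colour Affymetrix arrays. The deposited values are log2 expression after RMA, per the submitters' processing notes; its version is not given in the sources used here. Of 52865 features, 99 controls were left out. The array medians, 5.012 to 5.097, left the scale as deposited. The labels name no batch, none was analysed here, and the number of arrays limits the precision. Symbols came from the platform annotation, which can be old; 24956 probe sets had 1 symbol. A gene was followed by its probe set with the highest mean over all arrays.

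A linear model with 4 group means was fitted to all 52766 probe sets with limma 3.58.1 in R 4.3.3 (lmFit, eBayes, 8 residual and 3.69 prior degrees of freedom), with Benjamini-Hochberg adjustment over all of them. Calls required an adjusted p under 0.05 together with a 2-fold difference. The fit was tested on simulated data. The 7 genes, the gene lists and the tests were chosen with earlier results of these data known. All 7 genes are named. The rule for each list was to name up to 4 called genes with the largest differences, or the 2 largest where none was called. This rule was not kept in full, and some genes under it are not named. One of them is EBF2, with the largest difference of its list in ORMES-9 against rPESC-2 (0.71). Genes beyond this rule were chosen after their values were seen. Among these were GATA3, CDX2, TFAP2C, TCF4, TCF12 and the endoderm genes, and array values of ZEB2 and MSX2. COL6A3, COL1A1, FBN1, VIM and THY1 beside the markers were chosen so as well. The 3 genes most like a member were taken by Pearson r. Other probe sets, settings and omissions of 1 array were tried as alternatives.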

Additional observations from a re-analysis of the deposited data

How the results depend on the processing

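Between ES lines, the count of called probe sets among the 10 other than TWIST1 was 2 for rPESC-2 against ORMES-22 and fell to 0 with only the 6 arrays compared and to 0 with only the 9 ES arrays. Omitting 1 array gave 0 to 3. For ORMES-9 against ORMES-22 it was 2, and 1 with the 6 arrays (NFIX, in place of FOXF2 and VGLL3), 0 with the 9 ES arrays, 1 with trended and robust moderation (VGLL3), and 0 to 3 over single omissions. For ORMES-9 against rPESC-2 it was 0 in every setting run. Whether arrays of the same replicate letter were handled together could not be told. Correlations of same-letter deviations from the group means ran from −0.306 to 0.265 over 18 pairs, 6 of them above 0.1. The highest was that of replicate C of ORMES-9 and replicate C of ORMES-22, the arrays in which MSX1 was high. With the letter as a replicate block the counts were 2, 2 and 0. The 18 transcription factor genes of the lists called between fibroblasts and ES lines became 18 to 20 in the alternatives. Over all probe sets, rPESC-2 against ORMES-22 gave 656 calls, and 332 with the 6 arrays, 1493 without ORMES-22 replicate A, 1006 with array weights and 2536 with no minimum fold; ORMES-9 against ORMES-22 gave 831, and 1284 without that array and 3158 with no minimum fold; ORMES-9 against rPESC-2 gave 650, and 2753 with no minimum fold. Small differences changed sign. MSX1 in ORMES-9 against ORMES-22 ran from −0.43 to 0.28 over single omissions, being 0.28 without ORMES-22 replicate C and 0.13 and 0.03 without ORMES-9 replicate A and B; against rPESC-2 it ran from −0.02 (without ORMES-9 replicate C) to 0.54. In that comparison VGLL3 was −0.02 with array weights, −0.15 without rPESC-2 replicate C, −0.13 and −0.16 without ORMES-9 replicate B and C, up to 0.31 over omissions, and −0.34 in its dimmer probe set. NFIX was 0.16 and ZFHX3 0.39 without rPESC-2 replicate A (lowest −1.29 and −1.17), and the dimmest ZFHX3 probe set gave 0.08. The cause was not tested. Signal near background limits TWIST2, the dimmer VGLL3 and ZFHX3 probe sets, and FOXF2 in ORMES-9 and rPESC-2.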
